A study of Drosophila melanogaster with 4 samples.

Results

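The Su(Hw) regions of the Drosophila Hox complexes on chromosome arm 3R were described from ChIP-seq of wild-type Oregon-R embryos aged 14 to 16 h. The study held 2 ChIP samples, both made with the antibody named SU(HW)-HB, and 2 input DNA samples from the same strain and stage. For each ChIP sample there was a region list made with its like-numbered input, and a further list, here called combined, was made for the series as a whole. The labels name no separate embryo collections, so spread between the replicates may be technical.

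Regions were taken as members when their midpoint lay between 2480000 and 2830000 on 3R, a window of 350 kb for the Antennapedia complex, or between 12475000 and 12810000, a window of 335 kb for the bithorax complex (FlyBase release 5). Positions chose the members, and scores did not. The combined list held 26 members among its 5892 enriched regions, with 13 in each complex. The replicate 1 list held 18 of 4999 and the replicate 2 list 19 of 4662. Merged across the 3 lists where they overlapped, the members made up 15 sites in the Antennapedia complex and 14 in the bithorax complex, and each site is described below. The score of a region is the authors' deposited log2 enrichment. Its zero point is unknown here, so no score is a fold over input, and the read depth behind it is unknown too.

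Hox genes encode homeodomain transcription factors that give the segments of the embryo their identity. They lie in the order of the body segments they pattern, and large regulatory regions in and between them set where each is active. In the bithorax complex these regulatory regions are separated by boundary elements such as Mcp, Fab-7 and Fab-8. Su(Hw) is a zinc-finger DNA-binding protein known from the insulator of the gypsy retrotransposon, where it blocks enhancers from reaching promoters, and several classic bithorax alleles are gypsy insertions whose phenotypes su(Hw) mutations suppress. Release 5 positions of the boundary elements were not used here, so no region was matched to one of them.

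The Antennapedia complex carries lab, pb, Dfd, Scr and Antp, which pattern the head and the front of the thorax. By the gene order of RefSeq's Release 6 table, 43 genes lie from lab to Antp, both included, and 19 of them are protein-coding. They include zen, a homeobox gene for dorsal tissues, and bcd, the maternal determinant of the head, between pb and Dfd, and ftz, a pair-rule gene, between Scr and Antp. The bithorax complex carries Ubx, abd-A and Abd-B, which pattern the metathorax and the abdomen, and the same table lists 16 genes from Ubx to Abd-B, of which 6 are protein-coding. Only Antp, Ubx, abd-A and Abd-B had release 5 spans for use here, given to the nearest kb. All 4 genes are transcribed toward lower coordinates on 3R, so the upper end of each span is the 5′ end of the gene.

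**Figure D1:**
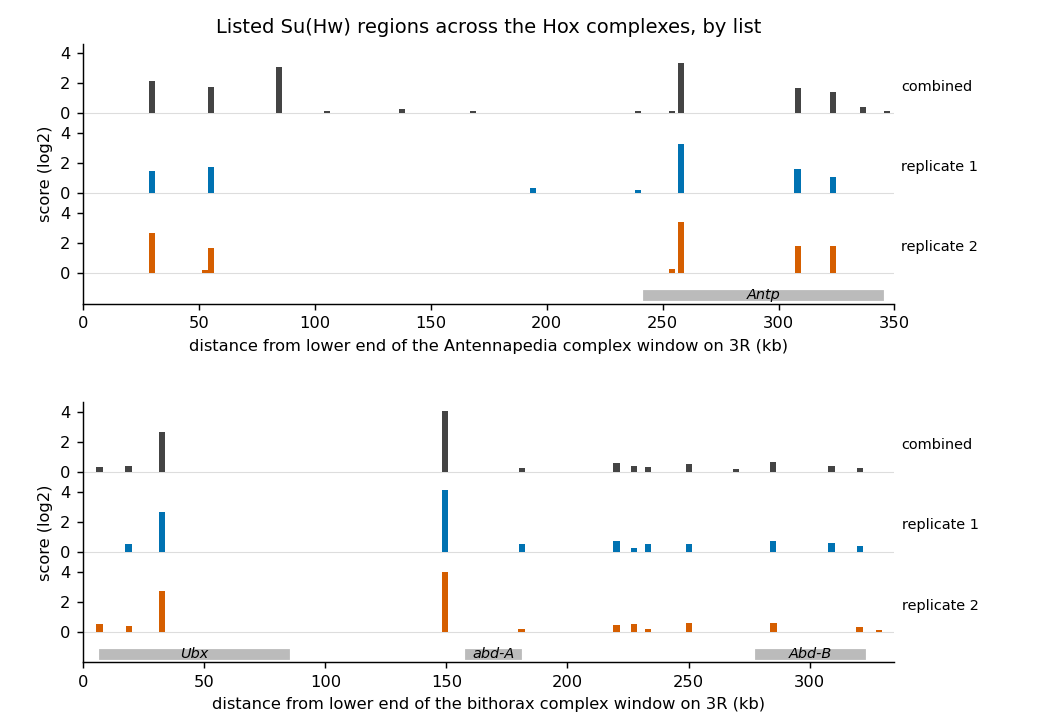
Score of each listed region (y axis, authors' log2 enrichment, 1 row per list) against distance from the lower end of each window (x axis, kb), with the spans of Antp, Ubx, abd-A and Abd-B as grey boxes; bars have a fixed width and are not drawn to region width. The tall bars of the bithorax complex stand at the same places in each list, and the stretch of the Antennapedia complex between about 55 and 250 kb holds weak or unshared regions, apart from 1 tall combined bar at 84 kb with no replicate bar below it.

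The bithorax complex had a pair of strong Su(Hw) sites, and both kept nearly the same score in each list. The stronger lay between Ubx and abd-A, at 12623244 to 12625694, and scored 4.03 combined, 4.10 in replicate 1 and 3.99 in replicate 2. It ranked 20 of 5892 in the combined list, 21 of 4999 in replicate 1 and 30 of 4662 in replicate 2, and was the best-scoring region of both Hox complexes in all 3 lists. Its midpoint lay 8.53 kb below the 3′ end of abd-A, which specifies the anterior abdomen, in the stretch that separates abd-A from Ubx. On 3R it ranked 6 of 1442 combined regions.

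The other strong site lay inside Ubx, the gene that distinguishes the haltere-bearing metathorax, at 12506294 to 12508912. Its scores were 2.65 combined, 2.64 in replicate 1 and 2.72 in replicate 2. The midpoint lay 25.6 kb from the 3′ end of the 78 kb Ubx span. A weaker site in Ubx stood 11.6 kb from the same end, at 12492638 to 12494656, and scored 0.41 combined, 0.56 in replicate 1 and 0.42 in replicate 2. Both Ubx members thus lay in the 3′ part of the gene, and the part toward its 5′ end held no listed region. Another site, at 12481220 to 12482258, had its midpoint 0.261 kb beyond the 3′ end of the Ubx span. It scored 0.31 in the combined list and 0.55 in replicate 2 and was not listed in replicate 1.

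Between the strong sites, a stretch of 117 kb from midpoint to midpoint held no region in any of the 3 lists. It covers the 5′ part of Ubx and most of the DNA between Ubx and abd-A, where the gene table places the bxd non-coding RNA. Among the 1441 distances between neighbouring combined regions of 3R, 5 were longer. In the replicate lists 11 of 1243 distances were longer in replicate 1 and 16 of 1138 in replicate 2. How well reads could be placed in this stretch was not measured, so the lack of a listed region need not mean a lack of binding.

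From the 5′ end of abd-A to Abd-B the combined regions were weak, with scores from 0.20 to 0.64. The first lay at the 5′ end of abd-A, at 12655102 to 12657078, with its midpoint 0.09 kb past the span. It scored 0.28 combined, 0.54 in replicate 1 and 0.19 in replicate 2. No member had its midpoint inside the 23 kb abd-A span itself. Counting any overlap with the span, or widening the span by 2 kb, moved that count from 0 to 1, and the region added is this one.

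The 97 kb between abd-A and Abd-B hold the iab regulatory DNA of both genes and the iab-4 microRNA locus. Here the combined list had 6 regions, the one at 12655102 included. Of these, 5 were found in both replicates, as were 73.5% of the whole combined list. The density of the 6 was 61.9 regions per Mb (95% exact Poisson interval 22.7 to 135), near the 52.0 of the rest of 3R. In the 73 kb between Ubx and abd-A it was 13.7 (0.347 to 76.3), from 1 region. The intervals overlap, so these densities were not separated at these counts.

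The 4 other shared sites in this stretch scored between 0.20 and 0.73 in every list. At 12694174 to 12696306 the combined score was 0.61, with 0.73 in replicate 1 and 0.47 in replicate 2. At 12701452 to 12703480 it was 0.41, with 0.29 and 0.53. These neighbours stood 7.23 kb apart by midpoint, and their replicate order was opposite, so neither replicate was uniformly higher here. At 12707296 to 12709308 the combined score was 0.36, with 0.56 in replicate 1 and 0.20 in replicate 2. At 12723902 to 12726456 it was 0.51, with 0.54 and 0.59. The shortest distance between neighbouring combined members of the bithorax complex, 5.84 kb, was the one from 12701452 to the region at 12707296. A region at 12743996 to 12745204, 8.4 kb from the 3′ end of Abd-B, was in the combined list with a score of 0.20 and in neither replicate list.

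Abd-B, which patterns the posterior abdomen and the genitalia, held 3 combined members in its 45 kb. The best of them, at 12758166 to 12761346, scored 0.64 combined, 0.76 in replicate 1 and 0.60 in replicate 2. With 3181 bp it was also the widest member of the bithorax complex, in a complex whose members ran from 1039 to 3181 bp. The site at 12783428 to 12784726 scored 0.38 in the combined list and 0.58 in replicate 1 and was not listed in replicate 2. The site nearest the 5′ end of Abd-B, at 12794878 to 12796548, scored 0.28 combined, 0.39 in replicate 1 and 0.34 in replicate 2, and its midpoint lay 2.29 kb inside that end. Beyond it, replicate 2 alone listed 12803009 to 12804533 with a score of 0.18.

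The edge of the bithorax window matters for the next region. A region at 12809008 to 12811314 had its midpoint 0.161 kb outside the upper edge and is not counted as a member. It scored 1.12 combined, 0.57 in replicate 1 and 1.62 in replicate 2. The nearest combined member inside that edge was the site at 12794878, 14.3 kb away from it. No other edge had a combined region as close on the outside: the nearest outside regions were 24.6 kb below the bithorax window and 37.2 kb below and 44.4 kb above the Antennapedia window.

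**Figure D2:**
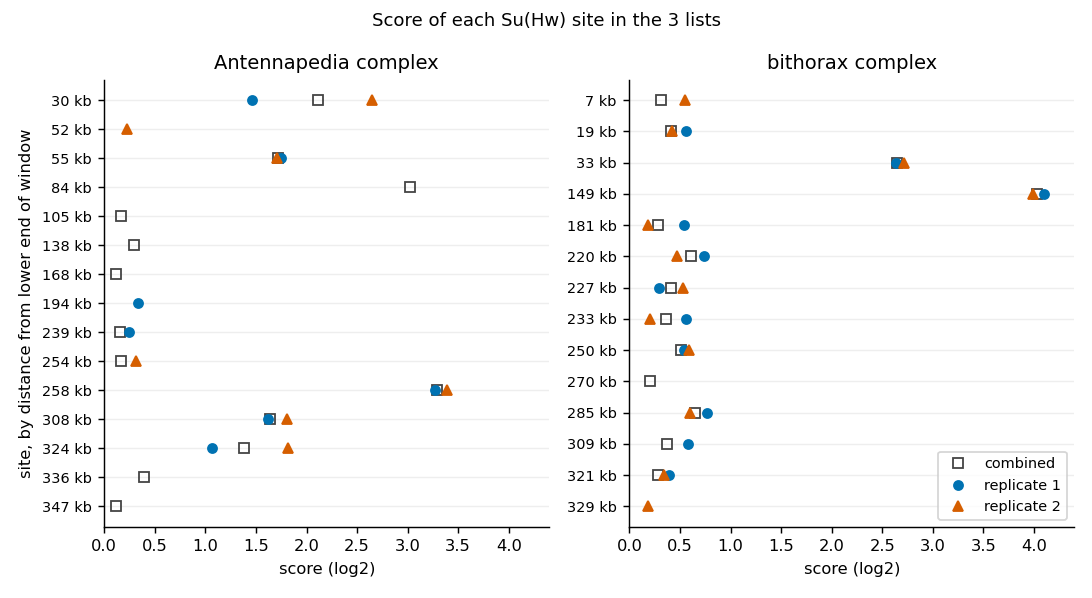
Score (x axis, authors' log2 enrichment) of every site in the combined list (open squares), replicate 1 (circles) and replicate 2 (triangles), with sites ordered by distance from the lower end of the window (y axis). In the bithorax complex, 2 sites score 2.64 or more in every list and the others stay below 1; in the Antennapedia complex, 5 sites have all 3 marks and score above 1, and 6 have a square alone.

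The Antennapedia complex had another make-up, with 5 sites found in both replicates, each scoring above 1, and 10 sites with less support. Antp, which specifies the mesothorax and is known for turning antennae into legs when misexpressed, held 3 of the 5. The strongest, at 2736486 to 2739674, scored 3.29 combined, 3.27 in replicate 1 and 3.39 in replicate 2. It lay 16.1 kb from the 3′ end of the 103 kb span and ranked 146 of 5892 in the combined list. At 2786948 to 2789482 the scores were 1.64, 1.62 and 1.80 in the same order. At 2802354 to 2805066 they were 1.39, 1.07 and 1.82, which puts the replicates 0.75 apart. These sites lay 36.8 and 21.3 kb from the 5′ end of Antp.

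The other shared sites lay at the far end of the complex, 212 and 187 kb below the 3′ end of Antp, in the part of the window that holds the genes from lab onward. Which of these genes lies nearest was not analysed here, because their release 5 spans were not used. The site at 2508338 to 2511090 scored 2.11 combined, 1.46 in replicate 1 and 2.65 in replicate 2. This was the member whose replicate scores lay furthest apart. The site at 2533708 to 2536624 scored 1.72 combined, 1.75 in replicate 1 and 1.71 in replicate 2. Just below it, replicate 2 alone listed 2531496 to 2533246 with a score of 0.23.

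Between 2533708 to 2536624 and the strong Antp site, 203 kb from midpoint to midpoint held no region found in both replicates. No other of the 1068 distances between such regions on 3R was longer, and 12 of 4266 were longer over the arms 2L, 2R, 3L, 3R and X together. In the replicate 2 list alone the empty stretch was 199 kb, again the longest of 1138 distances on 3R. In the replicate 1 list it was 139 kb, with 3 of 1243 longer, because replicate 1 listed 2673503 to 2674820 with a score of 0.33. That region was in neither of the other lists. Among all combined regions, the longest distance between neighbouring members of the complex was 71.1 kb, and 55 of 1441 on 3R were longer. The rank of the stretch therefore depends on the list used. The 203 kb stretch was picked out after the values were seen, and its read mappability was not measured.

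The combined list alone placed 4 regions in this stretch. A region at 2563988 to 2564988 had a score of 3.03, the second highest of the Antennapedia complex, yet neither replicate listed it. It was 1001 bp wide, the least width in the combined list, shared with 32 others, and 2 other combined regions had exactly the same score. In the whole combined list, 30 regions scored above 1 and were found in neither replicate, 22 of them narrower than 1100 bp, and 3 of the 30 lay on 3R. Of all 224 combined regions narrower than 1100 bp, 203 were found in neither replicate. The region at 2563988 therefore had the form of many unreplicated entries, and the number of reads behind it is not known. The remaining combined-only regions of the stretch scored 0.16 at 2584448 to 2585808, 0.29 at 2617130 to 2618264 and 0.12 at 2647474 to 2648842.

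The sites around the ends of Antp were weak and unshared. At 2718464 to 2719958, 2.79 kb beyond the 3′ end, the combined score was 0.16 and the replicate 1 score 0.25, with no region in replicate 2. At 2733644 to 2734858, inside Antp, it was 0.16 in the combined list and 0.32 in replicate 2, with none in replicate 1. That site stood 3.83 kb by midpoint from the strong Antp site, the shortest distance between combined members of the complex. Toward the 5′ end, the combined list alone held 2815932 to 2816934 with 0.39 and 2826032 to 2827344 with 0.12, the latter 1.69 kb upstream of the span. Between the shared site at 2802354 and the 5′ end of Antp, then, neither replicate listed a region.

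Support from the replicates differed in its counts between the complexes. Over the whole combined list, 73.5% of regions overlapped a region of both replicates by at least 1 bp. In the bithorax complex 10 of 13 members did (76.9%, 95% exact binomial interval 46.2 to 94.96), which is close to that background. In the Antennapedia complex 5 of 13 did (38.5%, 13.9 to 68.4), and the interval lay below the background share. Conversely, 6 of 13 Antennapedia members were found in neither replicate (46.2%, 19.2 to 74.9) and 1 of 13 bithorax members, against 12.9% of the whole list. The intervals of the complexes overlap, and the difference between them was not tested. They treat regions as independent and cover counting of regions only.

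The weak members differed in their counts too. Among combined regions scoring below 1, a limit chosen after the values were seen, 50.2% of the whole list were found in both replicates. In the bithorax complex 8 of 11 weak members were (72.7%, 39.0 to 93.98), and in the Antennapedia complex 0 of 7 were (upper bound 41.0%). In neither replicate were 5 of the 7 weak Antennapedia members (71.4%, 29.0 to 96.3) and 1 of the 11 weak bithorax members, beside 23.9% of weak regions in the whole list. These groups were not alike in score. The median was 0.16 for the 7 Antennapedia members, 0.38 for the 11 bithorax members and 0.36 for all weak regions. The shares therefore do not compare members of like score. The 8 bithorax members had a median width of 2024 bp, beside 2109 bp for all 1538 weak regions found in both. The 5 weak Antennapedia members found in neither replicate had a median width of 1313 bp, beside 1250 bp for all 732 such regions. The weak members listed in replicate 1 but not replicate 2 were 1495 bp (Antennapedia) and 1299 bp (bithorax) wide, below the median of 1715 bp for all 559 such regions. Those listed in replicate 2 but not replicate 1 were 1215 bp (Antennapedia) and 1039 bp (bithorax), below the median of 1812 bp for all 234, and 1039 bp is the least width among these.

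**Figure D3:**
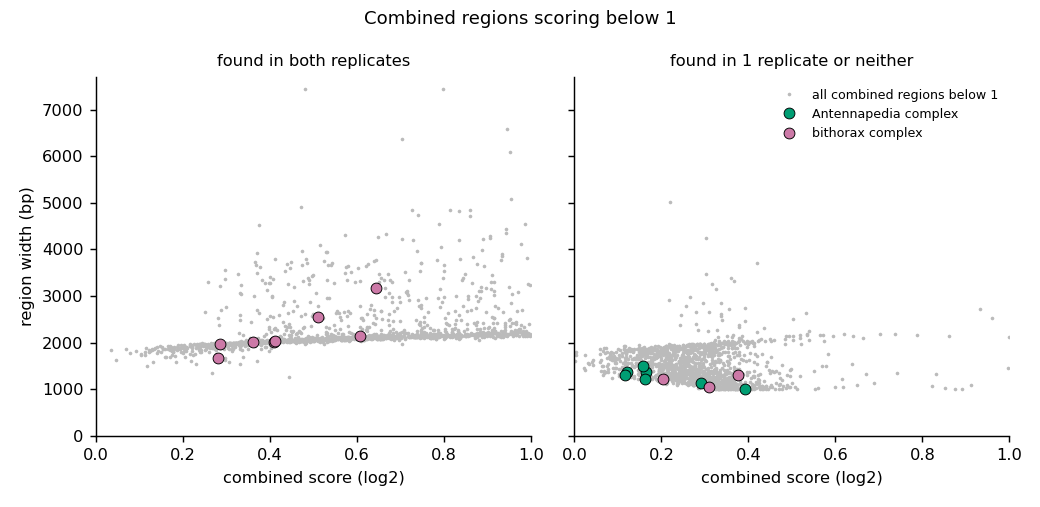
Width (y axis, bp) against combined score (x axis, authors' log2 enrichment) of combined regions scoring below 1, split by whether both replicates listed them; grey points are all such regions and coloured points those of the Hox complexes. The left panel holds 8 bithorax members and no Antennapedia member. The right panel holds the 7 weak Antennapedia members and the remaining weak bithorax members, all at 1495 bp or narrower.

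Read from the replicate lists, 15 sites were shared. Of the replicate 1 members, 15 of 18 had a partner in replicate 2 (83.3%, 58.6 to 96.4), beside 87.7% of that whole list. Of the replicate 2 members, 15 of 19 had one in replicate 1 (78.9%, 54.4 to 93.9), an interval that ends just under the 94.1% of that list. At the shared sites the midpoints of the replicates differed by a median of 60.5 bp in the Antennapedia complex (5 sites, at most 69 bp) and 38.5 bp in the bithorax complex (10 sites, at most 280 bp). Shared sites were thus placed within a small part of their own width.

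At 13 of the 15 shared sites the replicates differed in score by under 0.5, as did 3769 of all 4386 pairs. The exceptions were 2508338 and 2802354 in the Antennapedia complex. Score differences, replicate 2 minus replicate 1, ran from -0.36 to 0.24 in the bithorax complex, with a median of -0.12, and 7 of the 10 sites scored higher in replicate 1. In the Antennapedia complex they ran from -0.04 to 1.19, with a median of 0.19, and 4 of 5 sites scored higher in replicate 2. Over all pairs the median was 0.02 and the SD 0.43. The site at 2508338 was the 1 member over 1 higher in replicate 2, a state shared by 5.34% of all pairs, and no member was over 1 higher in replicate 1, where 0.0% of pairs were. Each list may have been normalized separately, so these differences are descriptions.

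**Figure D4:**
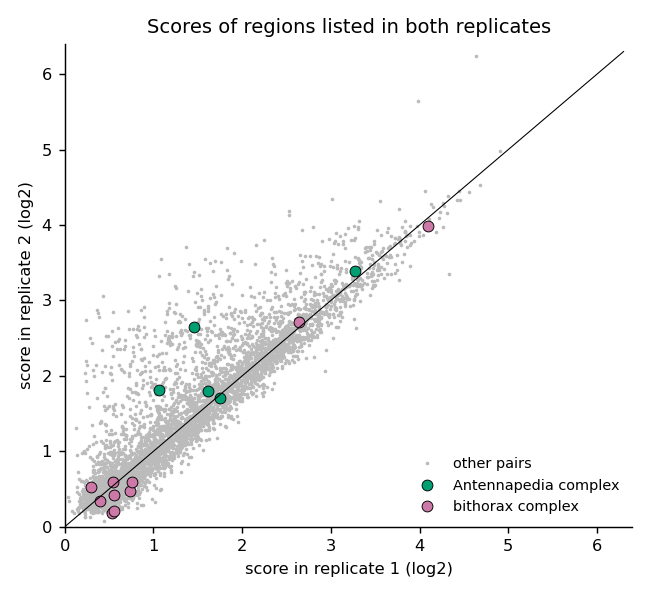
Score in replicate 2 (y axis) against score in replicate 1 (x axis), both log2, for each replicate 1 region and its best-scoring partner; grey points are pairs elsewhere, coloured points are pairs in the Hox complexes, and the line marks equal scores. The bithorax pairs sit near the line, with 2 high on it and 8 at its lower end, and the Antennapedia pair at 1.46 and 2.65 lies furthest above it.

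The regions of the bithorax complex were weak for 3R when those found in both replicates were compared. Their median combined score was 0.46, and when 3R was cut into tiles of 335 kb, the median of the tiles' medians was 1.47 over the 81 tiles that do not overlap the complex, and 2 of them had a lower median. The 5 shared Antennapedia members had a median of 1.72, and of the 77 tiles of 350 kb that do not overlap that complex, 62 had a lower one. Over all combined members the medians were 0.41 in the bithorax and 0.39 in the Antennapedia complex, beside 0.93 on 3R. With all combined regions, 8 of the 81 tiles had a lower median than the bithorax complex. For the Antennapedia complex it was 6 of the 77. By tile medians, the contrast between the complexes was thus seen with regions found in both replicates and not with all combined regions. Scores above 1 were held by 2 of 13 bithorax members and 6 of 13 Antennapedia members, beside 48.0% of the whole combined list. Of these 6, 1 was found in neither replicate, the region at 2563988. In the replicate lists the bithorax median stayed low, at 0.56 in replicate 1, where 3R had 1.14, and at 0.50 in replicate 2, where 3R had 1.46. The Antennapedia median in the replicate lists was 1.46 and 1.80, since the weak combined-only regions drop out, so the complexes differed there too. In samples of whole embryos, binding in fewer cells and weaker binding in each cell cannot be told apart.

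Both complexes held fewer listed regions per length than the rest of 3R, but not all of these differences were separated from 1. The combined list gave 37.1 regions per Mb in the Antennapedia complex (95% exact Poisson interval 19.8 to 63.5) and 38.8 in the bithorax complex (20.7 to 66.4), beside 52.0 on the rest of the arm. The ratios were 0.714 (95% exact interval 0.379 to 1.22) and 0.746 (0.396 to 1.28), and both intervals include 1. With regions found in both replicates, the Antennapedia ratio was 0.369 (0.1195 to 0.864), from 14.3 regions per Mb against 38.7, and the bithorax ratio 0.771 (0.369 to 1.42). Against the 1 Mb on each side of each window, chosen after the values were seen, these ratios were 0.376 (0.119 to 0.916) and 0.649 (0.301 to 1.25). In the replicate 1 list the Antennapedia ratio was 0.444 (0.178 to 0.918), and in replicate 2 it was 0.486 (0.195 to 1.00), which just includes 1. Against the 1 Mb on each side, the Antennapedia ratios of replicates 1 and 2 were 0.494 (0.192 to 1.06) and 0.488 (0.190 to 1.05), and both intervals include 1. The intervals take regions as independently placed.

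Tiles of the arm as long as each window give the same counts a setting without that assumption. The 2 tiles that overlap the complex itself were left out each time. Among the other 77 tiles of 350 kb, the median held 19 combined regions and 14 found in both replicates. For the Antennapedia complex, 11 of these tiles held fewer than its 13 combined regions and 3 held fewer than its 5 found in both. Among the other 81 tiles of 335 kb, 14 held fewer than the 13 combined regions of the bithorax complex and 17 fewer than its 10 found in both. The combined regions covered 6.86% of the Antennapedia window and 8.12% of the bithorax window, beside 12.6% of the rest of 3R.

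**Figure D5:**
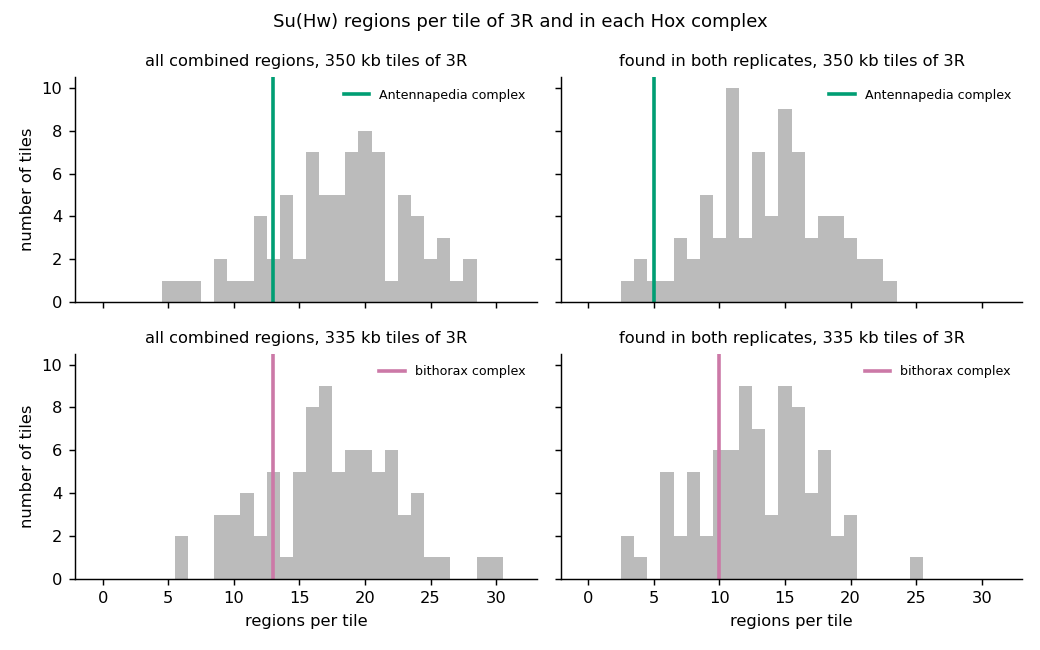
Number of tiles of 3R (y axis) by number of Su(Hw) regions in the tile (x axis), for tiles as long as each window that do not overlap it, with all combined regions on the left and those found in both replicates on the right; coloured lines mark the count in each complex. The Antennapedia line at 5 in the upper right panel lies in the lower tail, and the other lines lie nearer the bulk of the tiles.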

How the data were processed

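The submitters' processing notes name Bowtie 0.12.7 as the tool run on the ChIP and input reads of Oregon-R embryos. How regions were called and thresholded, and how ChIP was scaled to input, is not stated in the labels or headers. Each deposited list gives region positions in FlyBase release 5, per the file headers, and a score, which is the authors' log2 enrichment. The log2 scale was read from the deposited values: 44 pairs of combined scores differ by exactly 1 (tolerance 1e-11) and 0 by the step that a natural or base-10 log of a doubling would give. The start and end of a region (other values) are used as deposited. Input samples have no list of their own. Depth is unknown.

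Enriched regions were assigned to a complex by midpoint. Regions marked as depleted (5, 1 and 0 in the combined, replicate 1 and replicate 2 lists, with 0 on 3R) were left out. Overlaps, exact Poisson and binomial intervals and density ratios were computed with scipy 1.17.1, pandas 2.3.3 and numpy 2.4.6 under Python 3.11.15, and plots with matplotlib 3.10.9; the overlap and difference steps were tested on simulated data. All members are named by rule: the 6 best-scoring of each complex, those absent from a list, and those in or nearest the 4 gene spans. The rule also names those at the longest and shortest distance between neighbouring members of each complex. The members and lists were chosen with earlier results of these data known. Gene names and order come from RefSeq's Release 6 table, and no position was converted between builds. No genome of release 5 was used, so no sequence is shown.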

Additional observations from a re-analysis of the deposited data

How the results depend on the processing

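No paired analysis was possible because the inputs, which share replicate numbers with the ChIP samples, have no values of their own. Of 85 alternative values, 63 kept their call or stayed within their interval or spread, 19 moved and 3 passed a threshold. A reversal could be called only for the density ratios, and none was. For scores, widths, spacing and stretches, the spread was the SD of the replicate values themselves, so these labels do not measure stability. The bithorax stretch, for example, counted as moved at 116.892 kb against 116.866 kb. With the better-scoring 50% of the list, 6 Antennapedia and 2 bithorax members were left, and the bithorax density ratio was 0.227, past its threshold. With each list cut this way, 66.7% of Antennapedia members were found in both replicates, beside 38.5% in the main setting. For the bithorax complex it was 100%. Fewer regions enter by construction. The Antennapedia ratio passed its threshold with regions found in both replicates (0.369) and with replicate 2 left out (0.444). With replicate 1 left out it was 0.486 and did not pass. Leaving out 1 replicate in turn gave 7 Antennapedia members either way, median scores from 1.46 to 1.80 there and 0.50 to 0.56 in the bithorax complex, and an Antennapedia median width from 2459 to 2572 bp. It also gave median spacings from 19.1 to 35.2 kb (Antennapedia) and 16.9 to 20.5 kb (bithorax), longest stretches from 139 to 199 kb (Antennapedia) and of 117 kb (bithorax), and 3 to 4 members in Antp. Members over 0.5 higher in replicate 2 numbered 2. By overlap with the span, or with the span widened by 2 kb, 1 member lay at abd-A. The cause of these shifts was not tested, except that combined-only regions leave when a replicate list is used. With unknown depth, a missing weak region is not shown to be unbound.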

Other observations

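In the 100 kb below the bithorax window the combined list had 6 regions, replicate 1 had 7 and replicate 2 had 6. The combined list held 60.5 regions per Mb over the 1 Mb on each side of that window and 52.0 on the rest of 3R. A count of 6 in 100 kb is near these rates. The best of the 6, at 12435766 to 12438910, scored 2.59 combined, 2.23 in replicate 1 and 3.05 in replicate 2. Its neighbour at 12444118 to 12447420 scored 2.17, 1.503 and 2.91 in the same order. Each of the 6 combined regions was listed in both replicates, as were 73.5% of the whole combined list. These 6 lay from 24.6 to 75.1 kb outside the window. In the 100 kb above the bithorax window the combined list had 5 regions, of which the best, at 12881328 to 12883804, scored 2.35, with 2.30 in replicate 1 and 2.44 in replicate 2.

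Around the Antennapedia complex the combined list had 3 regions in the 100 kb below and 2 in the 100 kb above. The 1 Mb on each side of this window held 51 per Mb, and the difference was not tested at these counts. The region at 2441592 to 2443940 scored 1.58 combined, 1.498 in replicate 1 and 1.73 in replicate 2. The region at 2872348 to 2876394 scored 1.56, 1.63 and 1.87 in the same order.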
